A study of Homo sapiens with 7 samples.

Results

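The miRNAs described here are 5 mature miRNAs that many laboratories use as references when they measure extracellular fluids: hsa-miR-191-5p, hsa-miR-425-5p, hsa-miR-423-5p, hsa-miR-423-3p and hsa-miR-484. They were taken by name from a table of 2656 mature miRNAs, by a rule that uses no count, although earlier results of these data were known when they were chosen. The libraries were made from small extracellular vesicles (sEVs), the vesicles pelleted by high-speed centrifugation from conditioned medium, of HepG2 cells, a human hepatocellular carcinoma line. The 3 shCTR libraries came from cells carrying a scrambled short hairpin RNA, and the 4 shSYNCRIP libraries from cells carrying a hairpin against SYNCRIP, an RNA-binding protein that loads miRNAs into sEVs. Both lines were stable lentiviral infections selected with puromycin, with doxycycline-induced hairpins, and both were cultured in medium with serum depleted of vesicles. The titles number the libraries as biological replicates. Whether they came from separate infections is not given in the sources used here, and the mRNA of SYNCRIP is not part of a miRNA table, so the knockdown was not checked here. The question put to the 5 miRNAs was how constant each was across the 7 libraries, and whether silencing of SYNCRIP changed its abundance in sEVs.

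A reference miRNA is used to correct for unequal RNA input, and for this it has to be well detected and as constant as possible between samples. miR-191-5p and miR-425-5p are processed from neighbouring hairpins transcribed together, while miR-423-5p and miR-423-3p are the opposite arms of 1 hairpin. Usually 1 arm of a hairpin is kept by Argonaute, the protein that holds a mature miRNA on its targets, and the other arm is degraded. miR-484 is processed through an unusual route, in which the hairpin is transcribed directly with a capped end.

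Of the 5 members, 4 matched a mature sequence of RefSeq (GRCh38.p14). They are shown because the arms and the seed tell apart the members and any miRNA that could share their reads; the capitals mark the seed, bases 2 to 8 from the 5′ end, which pairs with target transcripts.
miR-191-5p: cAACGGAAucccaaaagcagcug
miR-423-5p: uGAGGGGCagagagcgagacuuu
miR-423-3p: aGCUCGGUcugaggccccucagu
miR-484: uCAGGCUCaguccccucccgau
The 4 seeds differ from each other, so these members do not form a seed family. The seed of miR-423-5p is shared with miR-3184-5p, which is read from the opposite strand of the same locus:
miR-3184-5p: uGAGGGGCcucagaccgagcuuuu
miR-423-5p and miR-3184-5p have their first 8 bases in common and then diverge. miR-3184-5p and its partner miR-3184-3p, the exact reverse complement of miR-423-5p, had 0 counts in every library, so all counts of this locus were assigned to miR-423. No other mature miRNA of the RefSeq table had the seed of miR-191-5p or of miR-423-3p. The seed of miR-484 is shared with miR-3155a and miR-3155b, which had no count in any library.

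On GRCh38, the hairpin of miR-191 lies at chr3:49020618-49020709 and that of miR-425 at chr3:49020148-49020234, both on the minus strand in an intron of the protein-coding gene DALRD3 (GENCODE release 29), 383 bases apart. The hairpin of miR-423 lies at chr17:30117079-30117172 on the plus strand, overlapping annotated exon and UTR of NSRP1, and that of miR-484 at chr16:15643294-15643372 on the plus strand, overlapping annotated exon and UTR of NDE1. Thus each hairpin sits on the strand of a protein-coding host gene. The hEXO motif, the sequence that SYNCRIP recognises outside the seed, is a run of 6 bases in which the first 3 are any base but C, followed by any base but U, then A or U, then G or C. It was searched on the mature strand alone, after the first 7 bases, and overlapping matches were allowed. miR-191-5p held 1 match, AAGCAG from position 15, and miR-423-5p held 1 match, AGAGAG from position 9, positions being counted from the 5′ end. The sequences of miR-423-3p and miR-484 held none. A match is common in miRNAs, at 63.6% of the 2370 mature sequences in the table and 61.9% of the 105 tested miRNAs with a sequence, so its presence in these members is only a description.

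The libraries were shallow, with 29863 to 388226 counts assigned to miRNAs and 100 to 275 miRNAs detected in each. shSYNCRIP replicate 2 was the shallowest, and shSYNCRIP replicate 4 detected the fewest miRNAs and had alone the lowest level of 44 of the 117 miRNAs that passed the filter on low counts (37.6%). Taking 3 counts as the limit, a miRNA with 0 counts could hold at most 0.000773% of the deepest library and 0.0100% of the shallowest. Intervals of a share of counts, and limits of this kind, cover counting error only. Of 6 miRNAs that mark hepatocytes or HepG2 cells, 5 were detected, with a summed share of 1.14% to 2.17% in shCTR and 0.597% to 3.00% in shSYNCRIP; miR-122-5p, the most hepatocyte-specific, had at least 313 counts in every library, miR-192-5p had at most 1 and miR-885-5p had 0. The 4 red blood cell miRNAs together held 9.49% to 18.7% of shCTR and 8.54% to 12.4% of shSYNCRIP counts, most of it miR-486-5p. miR-451a, the most specific of them, reached 2.61% of a library and was at 0 in 1 library. The 2 arms of miR-144 were at 0 in 6 libraries each. The 4 white blood cell miRNAs held 1.15% to 2.33% and 0.317% to 1.59%, and each was at 0 in at least 1 library. Their highest shares of a library ran from 0.246% for miR-142-5p to 1.00% for miR-150-5p. Every level here is a share of the miRNA counts of a library. It does not show the number of vesicles, and a fall of a miRNA cannot be told apart from a rise of others. The part of these other cells in the results below was not tested.

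The members fell into 3 sorts by detection. miR-191-5p and miR-423-5p were found in all 7 libraries, and miR-191-5p alone gave 79.1% of the members' counts. miR-425-5p and miR-423-3p each reached more than 4 counts in a single library. miR-484 never exceeded 4 counts. Only miR-191-5p and miR-423-5p passed the filter, which kept 117 of 2656 miRNAs.

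**Figure D1:**
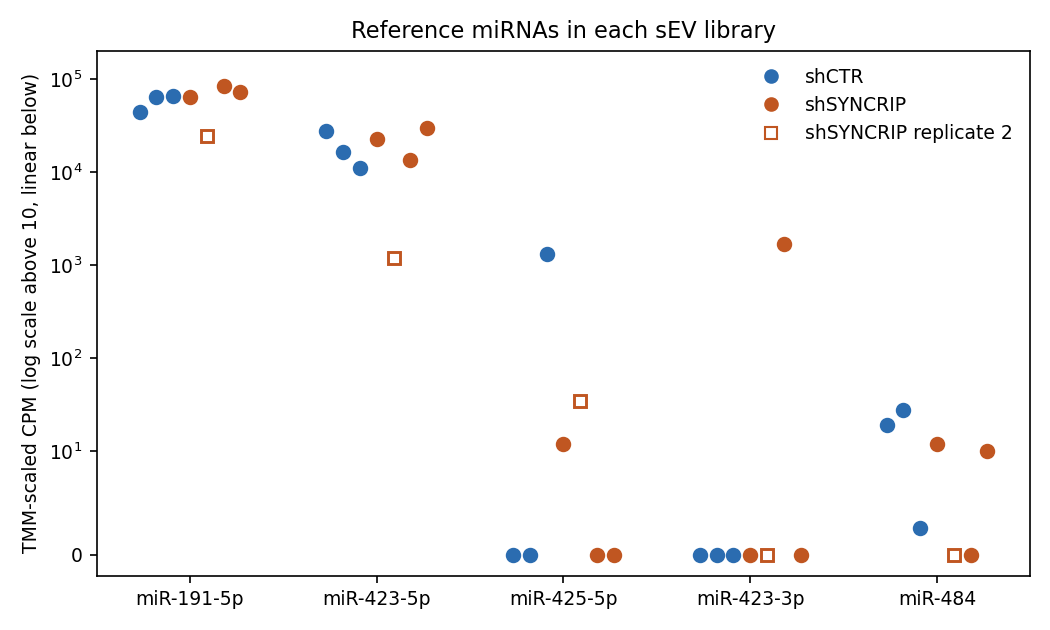
Level of each member in each library, in CPM, the counts per 1000000 counts of the library after TMM scaling (log scale above 10, linear below), with shCTR in blue, shSYNCRIP in orange and shSYNCRIP replicate 2 as open squares. miR-191-5p and miR-423-5p were measured in every library, while miR-425-5p reached 1323 CPM in shCTR replicate 3 alone and miR-423-3p reached 1694 CPM in shSYNCRIP replicate 3 alone.

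miR-191-5p was among the most abundant miRNAs of these sEVs, ranking between 3 and 8 in every library. Its counts were 4517, 9120 and 24982 in the shCTR libraries. In the shSYNCRIP libraries they were 10563, 702, 17245 and 7247. After scaling to each library's depth by TMM, a method that assumes most miRNAs do not change, its level was 43874, 63469 and 64925 CPM in shCTR and 64031, 24141, 83455 and 72524 CPM in shSYNCRIP, for replicates in numerical order. Of the shSYNCRIP libraries, 3 lay at or above the middle shCTR value and replicate 2 lay below every other library, so the groups overlapped. For shCTR the mean level was 57423 ± 11756 CPM (SD, n = 3). For shSYNCRIP it was 61038 ± 25851 CPM (SD, n = 4).

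miR-423-5p, the abundant arm of its hairpin, ranked between 9 and 24 in 6 libraries. shCTR replicates held 2836, 2370 and 4200 counts of it. shSYNCRIP replicates held 3720, 35, 2745 and 2928. On the TMM scale these were 27546, 16494 and 10915 CPM in shCTR and 22550, 1204, 13284 and 29302 CPM in shSYNCRIP. The groups overlapped here as well, and shSYNCRIP replicate 2, where miR-423-5p ranked 61, stood far below the rest. Its share of the counts in that library was 0.117% (95% exact binomial interval, 0.0816% to 0.163%), against 1.08% to 2.67% in the other 6. Mean levels were 18318 ± 8464 CPM (SD, n = 3) for the shCTR libraries, compared with 16585 ± 12176 CPM (SD, n = 4) for the shSYNCRIP libraries.

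Neither miRNA changed detectably with silencing of SYNCRIP. The log2 fold change of shSYNCRIP over shCTR for miR-191-5p was 0.20 (SE 0.35, 95% interval -0.49 to 0.90; limma-voom, adjusted p = 0.992). For miR-423-5p it was 0.23 (SE 0.66, 95% interval -1.09 to 1.55; limma-voom, adjusted p = 0.992). These intervals, 0.711-fold to 1.86-fold for miR-191-5p and 0.469-fold to 2.93-fold for miR-423-5p, give the precision that 7 libraries allowed. The sign itself was not fixed, since the quasi-likelihood test of edgeR gave 0.09 and -0.14 (adjusted p = 0.983 for both). With 1 library left out, the log2 fold change ran from -0.25 to 0.35 for miR-191-5p, below 0 without shCTR replicate 1 or 2 or shSYNCRIP replicate 1, 3 or 4. It ran from -0.47 to 0.11 for miR-423-5p, below 0 without shCTR replicate 2 or 3 or shSYNCRIP replicate 1 or 4. limma-voom weights each value by its fitted level and the depth of its library, not by the count observed. The unweighted means of miR-423-5p on the log2 scale were 14.06 ± 0.67 (SD, n = 3) in shCTR and 13.31 ± 2.10 (SD, n = 4) in shSYNCRIP.

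By the criteria of the study, an unadjusted p under 0.1 with a fold-change limit of 0.5, taken here to be on the log2 scale, 0 of the 5 members were called, against 21 of the 117 tested miRNAs (17.9%), 15 lower and 6 higher in shSYNCRIP. At an adjusted p under 0.05, limma-voom called 0 members and 3 of the 117 (2.56%). The quasi-likelihood test of edgeR called 0 members and 0 of the 117 (0%), with 2 at an unadjusted p under 0.05, and the Wald test of DESeq2 called 3. Levels did not overlap between the groups for 0 members and for 8 of the 117 (6.84%). Counts over 2 tested members are too small to be read against these shares.

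The spread between libraries told the members apart more clearly than the comparison of groups. The SD of log2 CPM over the 7 libraries was 0.603 for miR-191-5p, the 12th smallest of 117, and its highest level was 3.46-fold its lowest. For miR-423-5p the SD was 1.58, the 36th smallest, and the highest level was 24.3-fold the lowest. The median SD over the tested miRNAs was 2.57. Most of these were near 0 in some libraries, however, and among the 36 miRNAs with at least 10 counts in every library the median was 0.768, so that miR-191-5p kept rank 12 of 36 and miR-423-5p was last of 36, a place that rests on shSYNCRIP replicate 2 (rank 13 without it). Counting error would give an SD of 0.0249 for miR-191-5p and 0.0953 for miR-423-5p, well under what was measured.

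**Figure D2:**
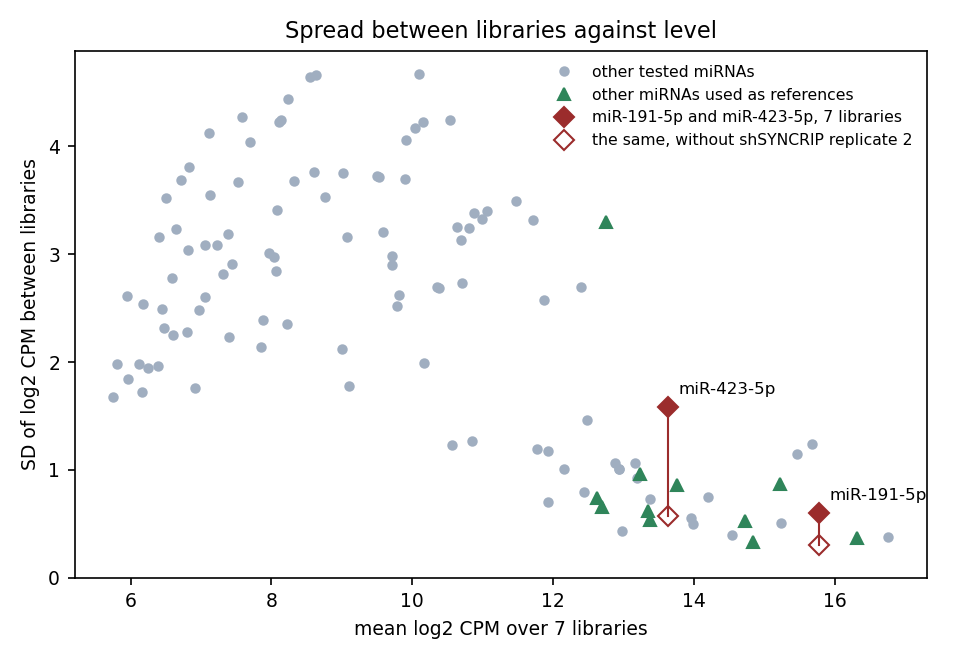
SD of log2 CPM between the 7 libraries (vertical) against mean log2 CPM (horizontal) for the 117 tested miRNAs; triangles are 11 other miRNAs used as references, filled diamonds the members, and open diamonds the members without shSYNCRIP replicate 2. Without that library miR-191-5p moved from an SD of 0.603 to 0.308 and miR-423-5p from 1.58 to 0.570.

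Much of the spread of both came from shSYNCRIP replicate 2. There miR-191-5p was 1.82-fold lower than in its next lowest library and 2.67-fold lower than the median of the others. The same gaps for miR-423-5p were 9.07-fold and 16.2-fold. Relative to the mean of the other 6 libraries, miR-191-5p stood at -1.41 and miR-423-5p at -3.95 on the log2 scale, against a median of -0.28 over the 36 miRNAs with at least 10 counts throughout. In this measure miR-423-5p had the largest drop of the 36 and miR-191-5p the 4th largest. These ranks hold within the 36 alone, since a miRNA that fell under 10 counts in shSYNCRIP replicate 2 is not among them. Over the tested miRNAs outside the 36, the same measure ran from -8.17 for miR-223-3p to 6.77 for miR-324-5p. Without this library, the SD fell to 0.308 for miR-191-5p, then the 2nd smallest of 117, with a 1.85-fold range. For miR-423-5p it fell to 0.570, the 14th smallest, with a 2.66-fold range. Among the 36 miRNAs with at least 10 counts in all 7 libraries, the ranks without it were 2 and 13. The library left out here is the one where both members were lowest, whereas other miRNAs kept their own lowest library. The better ranks therefore follow in part from that choice and do not show that the members are more constant than other miRNAs.

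Reference miRNAs outside the 5 members give a scale for these values. Of 12 others drawn from general knowledge, 11 passed the filter, all but miR-30e-5p, which had 0 to 4 counts in each library. By the study's criteria 0 of the 11 were called, against 21 of the 117 tested miRNAs (17.9%), and 11 are too few to be read against that share. Their median log2 fold change was 0.07 against -0.07 over all tested miRNAs, with a range of -0.75 to 1.61. The list is not neutral towards SYNCRIP, because the paper presents miR-103a-3p as a miRNA that SYNCRIP binds and loads into sEVs. Its log2 fold change here was -0.54 (SE 0.42). The SD of the 11 had a median of 0.660. It ran from 0.328 for let-7g-5p, a member of the let-7 family of differentiation-linked miRNAs, to 3.30 for miR-93-5p, a miRNA of the miR-17 family. miR-93-5p had 3 counts in its lowest library, whereas the other 10 had at least 10 counts in every library. The next largest SD was 0.965, for miR-320a-3p. miR-191-5p varied more than 4 of the 11, and miR-423-5p varied more than 10 of them. Without shSYNCRIP replicate 2, the lowest library of both members but not of all the 11, these numbers were 1 and 3 of the 11.

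miR-425-5p, the cluster partner of miR-191-5p, was seen in quantity in a single library. It was counted 0, 0 and 509 times in the shCTR libraries, and 2, 1, 0 and 0 times in the shSYNCRIP libraries. The 509 counts of shCTR replicate 3 were 0.131% of that library (95% exact binomial interval, 0.120% to 0.143%). At that share the other libraries would have held 39.2 to 316 counts, and the highest seen was 2. Its other arm, miR-425-3p, was counted 0, 1 and 0 times in shCTR sEVs and 2, 0, 2 and 0 times in shSYNCRIP sEVs, and miR-191-3p had none in any library. miR-191-5p outnumbered miR-425-5p by 49.1 to 1 in shCTR replicate 3. In the 4 libraries without a count of miR-425-5p, the ratio was at least 1506, 3040, 5748 and 2416 when 3 counts were taken as the limit. shSYNCRIP replicates 1 and 2, with 2 counts and 1 count of miR-425-5p, had too few for a ratio.

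miR-423-3p, the opposite arm of miR-423-5p, was found in shSYNCRIP replicate 3 alone, with 350 counts and 0 in each of the other 6 libraries. Those 350 counts were 0.145% of the library (95% exact binomial interval, 0.130% to 0.161%), a share at which the others would have held 43.4 to 564 counts. This share was at least 14.5-fold the limit that a count of 0 set in the shallowest library. In shSYNCRIP replicate 3 the ratio of miR-423-5p to miR-423-3p was 7.84. In the other 6 it was at least 945, 790 and 1400 in shCTR and at least 1240, 11.7 and 976 in shSYNCRIP replicates 1, 2 and 4, the lowest of these bounds coming from the 35 counts of miR-423-5p.

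miR-484 was at the limit of detection. shCTR libraries gave 2, 4 and 1 counts and shSYNCRIP libraries 2, 0, 0 and 1, which overlap. Summed over the 7 libraries it had 10 of 1178145 counts, or 8.49 CPM without scaling (95% exact binomial interval, 4.07 to 15.6). At this depth a change of miR-484 between the groups was not detectable.

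**Figure D3:**
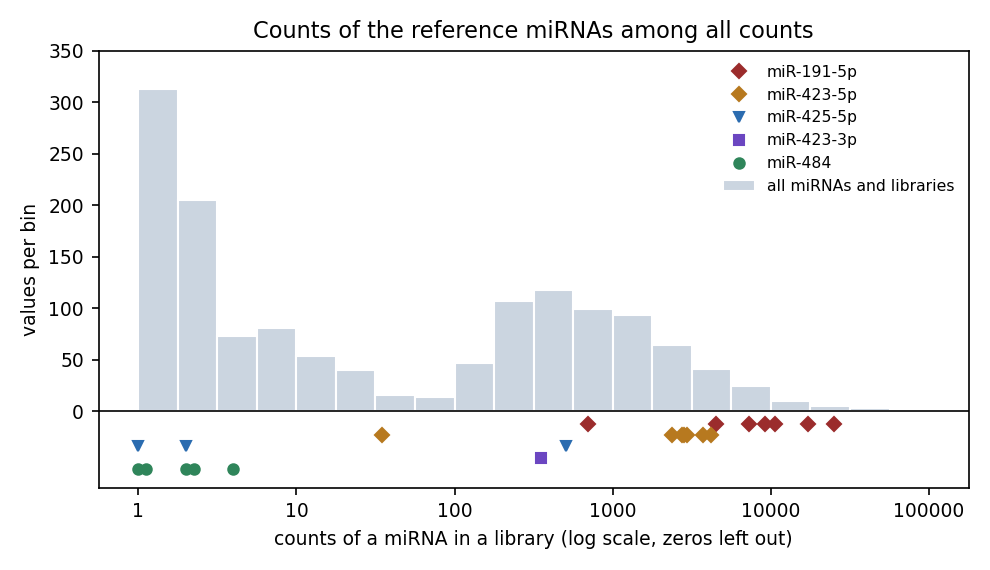
Number of values in bins of counts per miRNA and library (log scale, zeros left out) for all miRNAs, with each member's own counts marked beneath the axis. All counts formed a low and a high hump with few values between, and of the 23 nonzero counts of the members, 7 lay at 1 to 4, 15 at 100 or more and a single 35 between.

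Many miRNAs outside the members were likewise counted often in a single library. Of the 35 values of the members, 12 were 0, 7 lay from 1 to 4, 1 lay from 5 to 99, and 15 were 100 or more. Over the 406 miRNAs with any count, 2842 values divided into 1435, 562, 234 and 611 in the same classes. Of the 197 miRNAs that reached 100 counts somewhere, 59 (29.9%) did so in a single library with at most 4 counts in each of the others, and miR-425-5p and miR-423-3p were among these. shSYNCRIP replicate 3 held 18 of the 59 and shCTR replicate 3 held 12. Whether counts were filtered or changed per library before deposit is not given in the sources used here, so a 0 in this table, including those of miR-425-5p and miR-423-3p, need not mean that a library held no reads of a miRNA.

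A fit without the filter on low counts shows what such values do to the comparison. It tested 406 miRNAs and called miR-423-3p higher in shSYNCRIP by the study's criteria, with a log2 fold change of 2.37 (SE 1.35, limma-voom, adjusted p = 0.414) that came from 1 of 4 libraries. In that fit 65 of 406 miRNAs (16%) were called higher, 26 of them (40.0%) resting on a single library, and 22 were called lower. miR-425-5p stood at -0.52 (SE 2.06) and miR-484 at -0.55 (SE 1.93), and neither was called. Since the shCTR libraries were all at 0 for miR-423-3p, its fitted value depends on the prior count and is no measure of a fold.

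The levels followed 1 order at the top and none at the bottom. miR-191-5p exceeded miR-423-5p in 7 of 7 libraries, by 2.14 ± 1.19 on the log2 CPM scale (SD, n = 7; two-sided exact sign-flip permutation test, p = 0.0156, adjusted over 4 neighbouring pairs p = 0.0313). miR-423-5p exceeded miR-425-5p in 7 of 7, by 8.62 ± 3.32 (SD, n = 7; same exact test, p = 0.0156, adjusted p = 0.0313). miR-425-5p was detected in 3 libraries, and elsewhere the prior count stands for its level. The order of these miRNAs was thus measured, but the size of the gap depends on the prior count and is no measure of a fold. The value 0.0156 is the smallest that this test allows. Below them, miR-425-5p and miR-423-3p (exact test, adjusted p = 1) and miR-423-3p and miR-484 (exact test, adjusted p = 1) did not differ beyond their spread. The mature miRNAs are of nearly equal length, 22 or 23 bases where a sequence was matched, so CPM was compared between them directly, although ligation during library preparation favours some sequences over others.

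Ratios between members need no scaling of the libraries where both members are counted. Where the second member had no count, a ratio follows the counts of the first, and so the depth of the library. miR-423-3p was detected in 1 library and miR-425-5p in 3. Tests of their ratios therefore cannot decide whether the arms or the cluster partners shifted. The log2 ratio of miR-423-5p to miR-423-3p, with 0.5 added to each count, was 12.57 ± 0.42 on average in shCTR (SD, n = 3) against 8.62 ± 4.87 in shSYNCRIP (SD, n = 4). The difference of -3.95 did not pass the two-sided exact permutation test (p = 0.343, adjusted over 2 ratios p = 0.629), and it was -2.06 without shSYNCRIP replicate 3, the library that held miR-423-3p. Without that library miR-423-3p had no count, so the -2.06 describes miR-423-5p alone. The log2 ratio of miR-191-5p to miR-425-5p averaged 10.97 ± 4.67 in shCTR (SD, n = 3) against 12.45 ± 2.69 in shSYNCRIP (SD, n = 4). They differed by 1.48 (p = 0.629 by the same exact permutation test, adjusted p = 0.629), and by -1.19 once shCTR replicate 3 was left out. That left at most 2 counts of miR-425-5p in any library. The ratio of miR-423-5p to miR-191-5p, added after the data were seen, was -0.67, -1.94 and -2.57 in shCTR and -1.51, -4.31, -2.65 and -1.31 in shSYNCRIP. These values overlap between the groups, whose means differ by -0.71 (p = 0.486, exact permutation), and span more than 3 units between libraries. The difference was -0.09 without shSYNCRIP replicate 2 and -0.18 without shCTR replicate 1. The smallest p that 35 assignments of the 7 libraries allow is 0.0286.

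**Figure D4:**
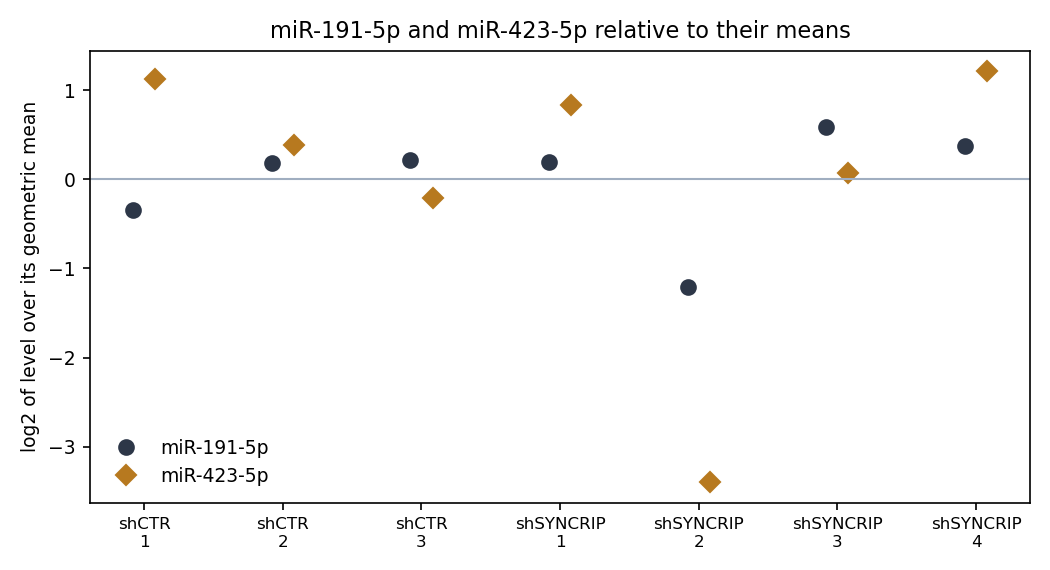
Level of miR-191-5p (circles) and miR-423-5p (diamonds) in each library relative to its own geometric mean over the 7 libraries, on the log2 scale. The pair lay on opposite sides of their means in shCTR replicates 1 and 3, and both were lowest in shSYNCRIP replicate 2, by far the most for miR-423-5p.

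Used as the reference in place of TMM, the 2 well-detected members gave unlike results; these scalings were added after the data were seen. Scaled on miR-191-5p, whose factors span 3.46-fold, 15 of the 117 miRNAs were called by the study's criteria, 11 lower and 4 higher, and 13 of these were among the 21 called under TMM. Scaled on miR-423-5p, whose factors span 24.3-fold, 8 were called, 4 lower and 4 higher, and all 8 were among the 21. The share of called miRNAs that were lower was thus close under TMM (15 of 21) and on miR-191-5p (11 of 15). It was smaller on miR-423-5p (4 of 8), on few calls. The median log2 fold change over all tested miRNAs was -0.07 under TMM, -0.23 on miR-191-5p and 0.03 on miR-423-5p. With each scaled on the other, miR-191-5p stood at 0.24 and miR-423-5p at 0.03, and neither was called.

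The profile of each member over the 7 libraries was set beside those of the other tested miRNAs by Pearson correlation of log2 CPM, as a description over 7 points that share depth and library. The profiles most like miR-191-5p were those of miR-139-5p (r = 0.956), miR-223-3p (r = 0.890) and miR-126-5p (r = 0.867). Those most like miR-423-5p were of miR-126-5p (r = 0.911), miR-26b-5p (r = 0.905) and let-7a-5p (r = 0.853). miR-191-5p and miR-423-5p correlated with each other at r = 0.765, and at r = -0.436 without shSYNCRIP replicate 2, so their likeness rests on that library. For the other members the nearest profiles follow a single library or a few counts. They were let-7d-3p (r = 0.694), miR-214-3p (r = 0.668) and miR-375-3p (r = 0.578) for miR-425-5p. For miR-423-3p they were miR-92b-3p (r = 0.863), miR-382-5p (r = 0.840) and miR-4492 (r = 0.803), and for miR-484 they were miR-30d-5p (r = 0.654), miR-433-3p (r = 0.652) and miR-22-3p (r = 0.647).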

How the data were processed

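The deposited table holds raw read counts of each mature miRNA in the 7 libraries, made by the authors. Reads from NEXTFLEX small RNA libraries were trimmed with FastqToolkit and Cutadapt, which removed reads under 16 bases, and counted with MiRDeep2 against miRBase. The deposited counts were not normalized, and each column was matched to its sample by group and replicate number. A count of 0 therefore holds whatever MiRDeep2 did not assign.

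miRNAs were filtered by filterByExpr of edgeR 4.0.16 with its defaults, a choice made here because the study does not name its filter. Those kept were scaled by TMM and tested with limma-voom (limma 3.58.1, R 4.3.3), as in the study's methods, with Benjamini-Hochberg adjustment over all 117 tested. The edgeR quasi-likelihood test and DESeq2 1.42.0 were alternatives. CPM was taken over the counts of the filtered miRNAs, and log2 CPM used a prior count of 2. Single values were compared by two-sided exact permutation tests. Sequences came from RefSeq, and sequence searches and figures were made with Python 3.11.15.

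The 5 members and the lists were chosen with earlier results of these data known. Named miRNAs were the members, the other arms of their hairpins and the pair opposite miR-423, the 3 most correlated tested miRNAs per member, the references outside the 5 members with the smallest and largest SD, and the marker miRNAs of 3 cell types. No 2 libraries of a group agreed within sampling noise.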

Additional observations from a re-analysis of the deposited data

Results flagged for a closer look

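In 2 of 9 checks, each of a member's level, of a ratio between members or of the members' summed share in the 4 shSYNCRIP libraries, 1 library lay far from the other 3 relative to their range. Chance would flag about 1 check in 20, or 0.45 here, if checks were independent and values not tied. These checks share members and some values are tied, so that number is only a guide. miR-423-3p had a log2 CPM of 10.7 in shSYNCRIP replicate 3, the remaining 3 being at 0 counts. With 3 libraries tied at 0, any count in the other would have been flagged, so this flag adds nothing to the counts. The members together held 2.47% of the counts in shSYNCRIP replicate 2, against 8.44% to 9.47% in the other 3. Groups of 3 were not checked.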

How the results depend on the processing

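Of the 131 values recomputed under another setting, 106 kept their direction and side of the threshold, 20 changed sign and 5 moved. The log2 fold change of miR-191-5p was -0.27 without the filter, -0.042 with at least 10 counts in every library and -0.0085 with DESeq2, and -0.25 to 0.35 when each library was left out. That of miR-423-5p was -0.047 with the size factors of DESeq2, -0.56 without the filter, -0.46 with at least 10 counts in every library, -0.14 with the quasi-likelihood test and -0.15 with DESeq2, and -0.47 to 0.11 with a library left out; none passed the threshold, and the cause was not tested. Members called numbered 0 in every setting except without the filter, where it was 1 (miR-423-3p). Members whose groups did not overlap numbered 0 to 1 with a library left out, the 1 being miR-484 without shCTR replicate 3, on counts of 4 or fewer. Scaling on miR-423-5p left 8 miRNAs called. With each library left out the SD ran from 0.308 to 0.672 for miR-191-5p and from 0.570 to 1.74 for miR-423-5p, lowest for both without shSYNCRIP replicate 2. The difference in the log2 ratio of miR-191-5p to miR-425-5p ran from -1.19 to 3.07, that of miR-423-5p to miR-423-3p from -5.36 to -2.06 and that of miR-423-5p to miR-191-5p from -1.13 to -0.09, and miR-191-5p exceeded miR-423-5p by 1.77 to 2.38.

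Replicates with the same number did not deviate together (r = -0.064, -0.033 and 0.088), and the main fit used no pairing. These values do not exclude a pairing, and whether libraries of the same number were made together is not given in the sources used here. With the replicate block, which leaves out shSYNCRIP replicate 4, the log2 fold changes were -0.25 and -0.56, close to the -0.23 and -0.47 without that library and without the block. The blocked ratios differed by -5.25 for miR-423-5p to miR-423-3p, 1.03 for miR-191-5p to miR-425-5p and -1.09 for miR-423-5p to miR-191-5p. The block called 0 members, as the fit without it did. At 4 counts or fewer, depth limits miR-484.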
